A study of Mus musculus with 4 samples.

Results

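The Hox genes described here are the members of the Hoxa, Hoxb, Hoxc and Hoxd clusters that a mouse Affymetrix expression array measured with a probe set of their own. A probe set was taken when its annotation held exactly 1 gene symbol and that symbol was Hoxa, Hoxb, Hoxc or Hoxd followed by a number, a choice that used no measured value. It gave 42 of 45141 probe sets on the array, which stood for 34 of the 39 Hox genes in the mouse gene table. In all, 17097 genes had a probe set with a single symbol. The other Hox genes were not analysed here. Hoxa3 had 4 probe sets, Hoxb3, Hoxb4, Hoxc5, Hoxd8 and Hoxd13 had 2 each, and the other genes had 1.

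RNA came from ATDC5 cells, a mouse line derived from a teratocarcinoma and used as a model of cartilage formation, in 2 groups of 2 arrays. Knockdown cells were transfected with an RNA duplex against Chadl, which encodes the cartilage matrix protein chondroadherin-like. Control cells received a scrambled duplex with no intended target. Both groups had 30 nM of duplex by lipid transfection, a change to differentiation medium after 16 h, and RNA isolated at 5 days. A single effective Chadl duplex was used, so a response to Chadl loss and a response to that duplex sequence cannot be told apart. The titles call the arrays of a group biological replicates, and whether they came from separate cultures is not given, so p-values measure only the spread between these samples. The RNA was of whole cultures, in which fewer cells of a type and less RNA per cell cannot be told apart.

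Hox genes encode homeodomain transcription factors that specify position along the head-to-tail axis and along the limbs. They lie in clusters that arose by duplication, and genes in matching places of different clusters form a paralogue group with one number. Low-numbered genes are switched on early and towards the head, high-numbered genes later and towards the tail and the ends of the limbs, so the set of Hox genes a mesenchymal cell expresses is often read as a record of where its lineage came from. In cartilage and bone precursors the code sets the identity of vertebrae and the proportions of limb segments.

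Values are log2 signals per probe set as the authors normalized them with RMA, a method that corrects background, aligns the arrays and summarises the probes of a set. Median signal was 4.24 and 4.25 in the knockdown arrays and 4.24 and 4.25 in the controls. Probe sets differ in how strongly they bind their RNA, so a higher signal of one gene than of another does not show more RNA of it. For that reason each probe set was set against a dim level, the 95th percentile of the control mean over 44 probe sets of odorant receptor genes, which are expressed in olfactory neurons. The dim level was 4.46. "Above the dim level" means above it in both control arrays. Chadl itself was at 4.29 and 4.64 in the knockdown arrays, against 4.91 and 4.84 in the controls. Its fitted difference was -0.41 (SE 0.12, 95% confidence interval -0.69 to -0.12, adjusted p = 0.608 in limma), so both knockdown arrays lay below both controls but the gene did not pass the test.

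In these cells 15 of 34 Hox genes were above the dim level, and they came from every cluster. Counted over probe sets, 18 of 42 (42.9%) were above it, close to the 43.0% among all 45037 probe sets tested. The genes were Hoxa3, Hoxa5, Hoxa7, Hoxa9 and Hoxa10 in the Hoxa cluster on chromosome 6, Hoxb2, Hoxb3, Hoxb4, Hoxb6 and Hoxb9 in the Hoxb cluster on chromosome 11, Hoxc4 and Hoxc9 in the Hoxc cluster on chromosome 15, and Hoxd3, Hoxd8 and Hoxd9 in the Hoxd cluster on chromosome 2. As a share of the genes measured, that was 5 of 9 in Hoxa, 5 of 10 in Hoxb, 2 of 6 in Hoxc and 3 of 9 in Hoxd. All 18 of these probe sets were also above the dim level in both knockdown arrays.

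By position, paralogue group 3 was above the dim level in 3 of 3 measured genes and group 9 in 4 of 4, and no other group with more than 1 measured gene was above it throughout. Group 1 was above it in 0 of 2 genes, group 2 in 1 of 2, group 4 in 2 of 4, group 5 in 1 of 3, group 7 in 1 of 2, group 8 in 1 of 3 and group 10 in 1 of 3, and the 1 gene measured in group 6, Hoxb6, was above it. Groups 11 to 13, which pattern the lower limb segments, the digits and the tail end of the trunk, had 0 of 7 genes above it, and their 8 probe sets had control means between 2.92 and 4.30. In groups 1 to 10 the share was 15 of 27 genes. By this dim level the highest-numbered gene above it was Hoxa10 in the Hoxa cluster and the group 9 gene in the other 3 clusters. That boundary depends on the level chosen: with the median of all probe sets, 4.25, in its place, Hoxc5, Hoxc10 and Hoxc13 were above it too, and groups 11 to 13 then had 1 of 7 genes. With the 99th percentile of odorant receptor probe sets, 4.51, Hoxd3 was lost, so group 3 was no longer above it throughout. The genes here are counted by their brightest probe set, and of the 4 Hoxa3 probe sets 2 were above the dim level. A probe set below the dim level may bind its RNA poorly, which signal alone does not show.

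**Figure D1:**
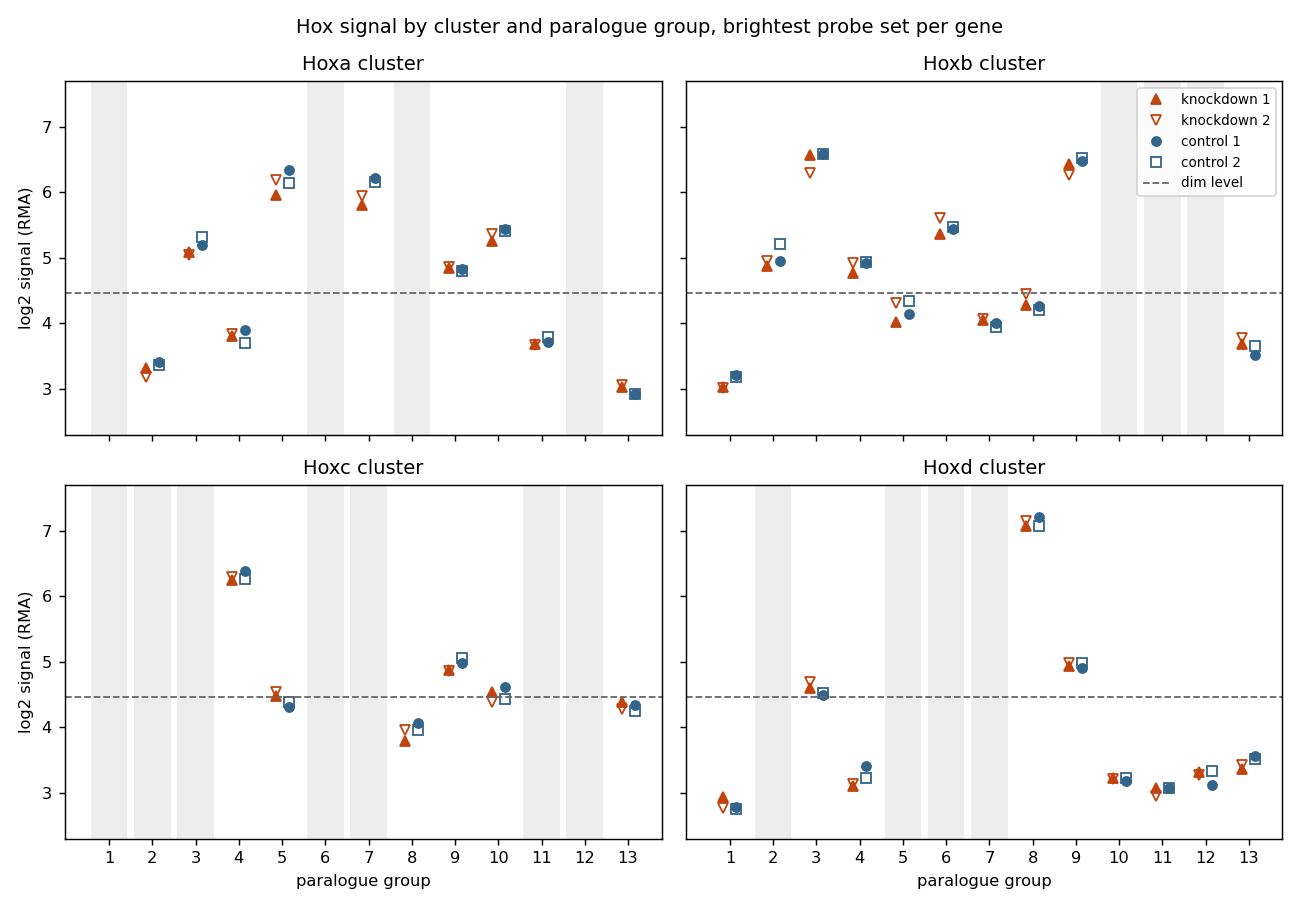
Log2 RMA signal (vertical axis) of the brightest probe set of each Hox gene by paralogue group (horizontal axis), in 1 panel per cluster; orange triangles are the 2 knockdown arrays, blue symbols the 2 controls, the dashed line is the dim level of 4.46, and grey bands are groups with no gene measured. The 4 arrays sit close together at each gene, the brightest point is Hoxd8, and groups 11 to 13 lie below the line.

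In the Hoxa cluster, Hoxa3, which shapes derivatives of the pharyngeal arches such as the thymus, had signals of 5.09 and 5.05 in the knockdown arrays, against 5.20 and 5.32 in the controls. Hoxa5, which patterns the neck-to-chest boundary of the skeleton and the lung, was at 5.96 and 6.18 in the knockdown arrays, against 6.34 and 6.14 in the controls. Hoxa7, a gene of the trunk region, was at 5.81 and 5.95 in the knockdown arrays, against 6.22 and 6.16 in the controls. Both knockdown arrays were below both controls for Hoxa3 and Hoxa7, whereas the groups overlapped for Hoxa5. Hoxa9, which acts in the trunk and in the upper limb segment with its paralogues, had 4.84 and 4.86 in the knockdown arrays, against 4.82 and 4.80 in the controls. Hoxa10, which represses rib formation in lumbar vertebrae, had 5.26 and 5.36 in the knockdown arrays, against 5.43 and 5.41 in the controls. Hoxa9 was thus slightly higher and Hoxa10 slightly lower in both knockdown arrays. Hoxa2, which holds back cartilage and bone formation in the neural crest of the second arch, was below the dim level, with 3.32 and 3.18 in the knockdown arrays and 3.42 and 3.36 in the controls. Hoxa4, Hoxa11 and Hoxa13 were also below it on every array. Of these dim genes, Hoxa2 and Hoxa11 were lower in both knockdown arrays, Hoxa13 was higher in both, and the groups overlapped for Hoxa4.

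In the Hoxb cluster, Hoxb2, which acts in hindbrain patterning, had 4.87 and 4.96 in the knockdown arrays, against 4.96 and 5.22 in the controls. Hoxb3, also a hindbrain and pharyngeal gene, had 6.56 and 6.30 in the knockdown arrays, against 6.59 and 6.59 in the controls. Hoxb4, best known for expanding blood stem cells, had 4.77 and 4.92 in the knockdown arrays, against 4.92 and 4.94 in the controls. For Hoxb2 and this brightest Hoxb3 probe set both knockdown arrays were the lower ones, by a small margin at the closest arrays. The second Hoxb3 probe set, also above the dim level, had 4.96 and 4.73 in the knockdown arrays against 4.85 and 4.83 in the controls. Its groups overlapped, with a difference of 0.004, so the decrease was not seen in both Hoxb3 probe sets. For Hoxb4 the groups overlapped. Hoxb6 had 5.36 and 5.61 in the knockdown arrays, against 5.44 and 5.47 in the controls. Hoxb9, which patterns the upper ribs with its paralogues, had 6.44 and 6.27 in the knockdown arrays, against 6.48 and 6.52 in the controls. The knockdown arrays lay on either side of the controls for Hoxb6 and below them for Hoxb9. Hoxb1, a hindbrain gene needed for the facial nerve, was dim, as were Hoxb5, Hoxb7, Hoxb8 and Hoxb13. Of these dim genes, Hoxb7, Hoxb8 and Hoxb13 were higher in both knockdown arrays, Hoxb1 was lower in both, and the groups overlapped for Hoxb5. Along the paralogue numbers of this cluster, the run Hoxb2 to Hoxb4 was above the dim level, and of the measured genes beyond it Hoxb6 and Hoxb9 were.

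Of the Hoxc genes, Hoxc4 had 6.25 and 6.29 in the knockdown arrays, against 6.38 and 6.26 in the controls, and the groups overlapped. Hoxc9, which marks the thoracic level of the spinal cord and rib cage, had 4.88 and 4.86 in the knockdown arrays, against 4.98 and 5.07 in the controls, with both knockdown arrays lower. Hoxc10, which acts in the lumbar region and hindlimb, lay at the dim level, with 4.54 and 4.39 in the knockdown arrays and 4.62 and 4.43 in the controls, so that 1 array of each group passed it and the gene is not counted as above it. Hoxc5 had 4.48 and 4.53 in the knockdown arrays and 4.31 and 4.38 in the controls. Hoxc5 was the gene whose 2 knockdown arrays both passed the dim level while neither control did. Hoxc8 and Hoxc13 stayed below it.

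In the Hoxd cluster, Hoxd8 had the highest signal of the family, 7.08 and 7.15 in the knockdown arrays against 7.22 and 7.08 in the controls, higher than 84.9% of all probe sets by its control mean. Hoxd3, which shapes the first neck vertebra, lay just above the dim level, with 4.60 and 4.69 in the knockdown arrays against 4.49 and 4.53 in the controls. Hoxd9, which acts in the forelimb and in the lumbar and sacral region, had 4.94 and 4.99 in the knockdown arrays against 4.91 and 4.99 in the controls. Hoxd3 was higher in both knockdown arrays, and the groups overlapped for Hoxd8 and Hoxd9. Hoxd1 and Hoxd4, at the low-numbered end, were dim. Hoxd4 had 3.11 and 3.13 in the knockdown arrays against 3.41 and 3.22 in the controls, with both knockdown arrays lower (difference -0.19, unadjusted p = 0.0504, adjusted p = 0.688 in limma), and the groups overlapped for Hoxd1. Beyond Hoxd9 every measured Hoxd gene was dim: Hoxd10, Hoxd11, Hoxd12 and Hoxd13, the last a gene of digit formation, had control means between 3.07 and 3.54 by their brightest probe sets. Along the chromosome, Hoxd8 and Hoxd9 above the dim level thus lay next to the dim run of Hoxd10 to Hoxd13.

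The 250 bases before the RefSeq start are given for Hoxd8, the brightest Hoxd gene, and for Hoxd13, a dim one. These genes lie on either side of that boundary but not next to it. Also given is Hoxa7, the gene of smallest p-value in the comparison below. The sequences are from RefSeq, build GRCm38.p6, 5′ to 3′ on the gene's strand, with CpG dinucleotides in capitals.
Hoxa7, chr6:52218574-52218823, minus strand: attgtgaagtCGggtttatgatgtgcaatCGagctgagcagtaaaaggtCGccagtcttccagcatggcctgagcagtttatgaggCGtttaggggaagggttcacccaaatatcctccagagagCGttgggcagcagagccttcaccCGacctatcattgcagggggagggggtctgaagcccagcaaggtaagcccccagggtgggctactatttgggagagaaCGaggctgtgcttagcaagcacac
Hoxd8, chr2:74704365-74704614, plus strand: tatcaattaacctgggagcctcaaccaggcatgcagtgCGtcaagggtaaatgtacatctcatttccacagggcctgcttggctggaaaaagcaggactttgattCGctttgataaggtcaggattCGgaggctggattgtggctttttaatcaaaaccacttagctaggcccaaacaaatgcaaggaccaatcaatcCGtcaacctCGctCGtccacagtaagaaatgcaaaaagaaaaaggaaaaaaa
Hoxd13, chr2:74667975-74668224, plus strand: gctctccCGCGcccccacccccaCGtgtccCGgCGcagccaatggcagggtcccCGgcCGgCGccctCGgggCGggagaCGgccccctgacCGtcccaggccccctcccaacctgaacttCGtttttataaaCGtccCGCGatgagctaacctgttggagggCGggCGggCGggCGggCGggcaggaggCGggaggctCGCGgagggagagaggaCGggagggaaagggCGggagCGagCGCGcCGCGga
Hoxa7 had 7 CpG and a GC content of 54.8%, Hoxd8 6 CpG and 44.4%, and Hoxd13 31 CpG and 74.4%. Of the genes that flank the boundary, Hoxd9 had 13 CpG and 65.2%, and Hoxd10 had 20 CpG and 65.6%. CpG-rich promoters are typical of developmental genes held by Polycomb proteins. RefSeq promoters were available for 21 of the member genes, 23 promoters in all, and their median was 12 CpG per 250 bases, against 6 over all 32851 promoters. Between the 11 promoters of genes above the dim level and the 12 of genes not above it, median CpG was 12 and 12.5. On either strand, the sequence TGATNNAT, bound by PBX-HOX pairs, was in 4 of the 23 promoters (17.4%), against 7.68% of all promoters. It was in 0 of the 11 promoters of genes above the dim level and in 4 of the 12 others. TGACAG, bound by MEIS proteins, was in 2 of 23 (8.70%), against 15.9% of all promoters, and TATAAA, the TATA box, was in 4 of 23 (17.4%), against 12.4%. Matches of different motifs overlapped in 0 member promoters, and such matches describe letters, not bound sites.

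The design's comparison asks what changed after the Chadl duplex. No Hox probe set passed the test: in limma with Benjamini-Hochberg adjustment over all probe sets, 0 of 42 had an adjusted p under 0.05. Over the whole array 1 of 45037 passed (0.00222%), the probe set of Ramp2, a receptor-modifying protein, named after its value was seen. At an unadjusted p under 0.05, 1 Hox probe set was higher in knockdown and 3 were lower, 2.38% and 7.14% of the 42, beside 3.42% higher and 3.83% lower among all probe sets. The smallest adjusted p in the family was 0.589. The fitted Hox differences ran from -0.31 to 0.24, the largest being 1.24-fold. The 95% confidence intervals extended 0.149 to 0.281 on either side of the estimate, with -0.53 as the lowest bound and 0.45 as the highest.

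Hoxa7 had the smallest p-value of the family. Its signal was 0.38 below the control mean in knockdown 1 and 0.24 below it in knockdown 2, a fitted difference of -0.31 (SE 0.09, 95% interval -0.53 to -0.10, unadjusted p = 0.0100, adjusted p = 0.589). The other 3 at an unadjusted p under 0.05 were dim probe sets. One was the second probe set of Hoxd13, with 3.60 and 3.39 in the knockdown arrays against 3.28 and 3.24 in the controls (difference 0.24, SE 0.09, unadjusted p = 0.0291, adjusted p = 0.658). The brighter Hoxd13 probe set differed in the other direction, with 3.36 and 3.42 in the knockdown arrays and 3.56 and 3.52 in the controls, so the 2 probe sets of that gene disagreed. Hoxb1 had 3.02 and 3.01 in the knockdown arrays against 3.21 and 3.18 in the controls (difference -0.18, SE 0.07, unadjusted p = 0.0301, adjusted p = 0.663). The dimmest Hoxa3 probe set had 3.39 and 3.42 in the knockdown arrays against 3.52 and 3.75 in the controls (difference -0.23, SE 0.09, unadjusted p = 0.0384, adjusted p = 0.670). All 4 Hoxa3 probe sets had a difference below 0, between -0.23 and -0.09.

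**Figure D2:**
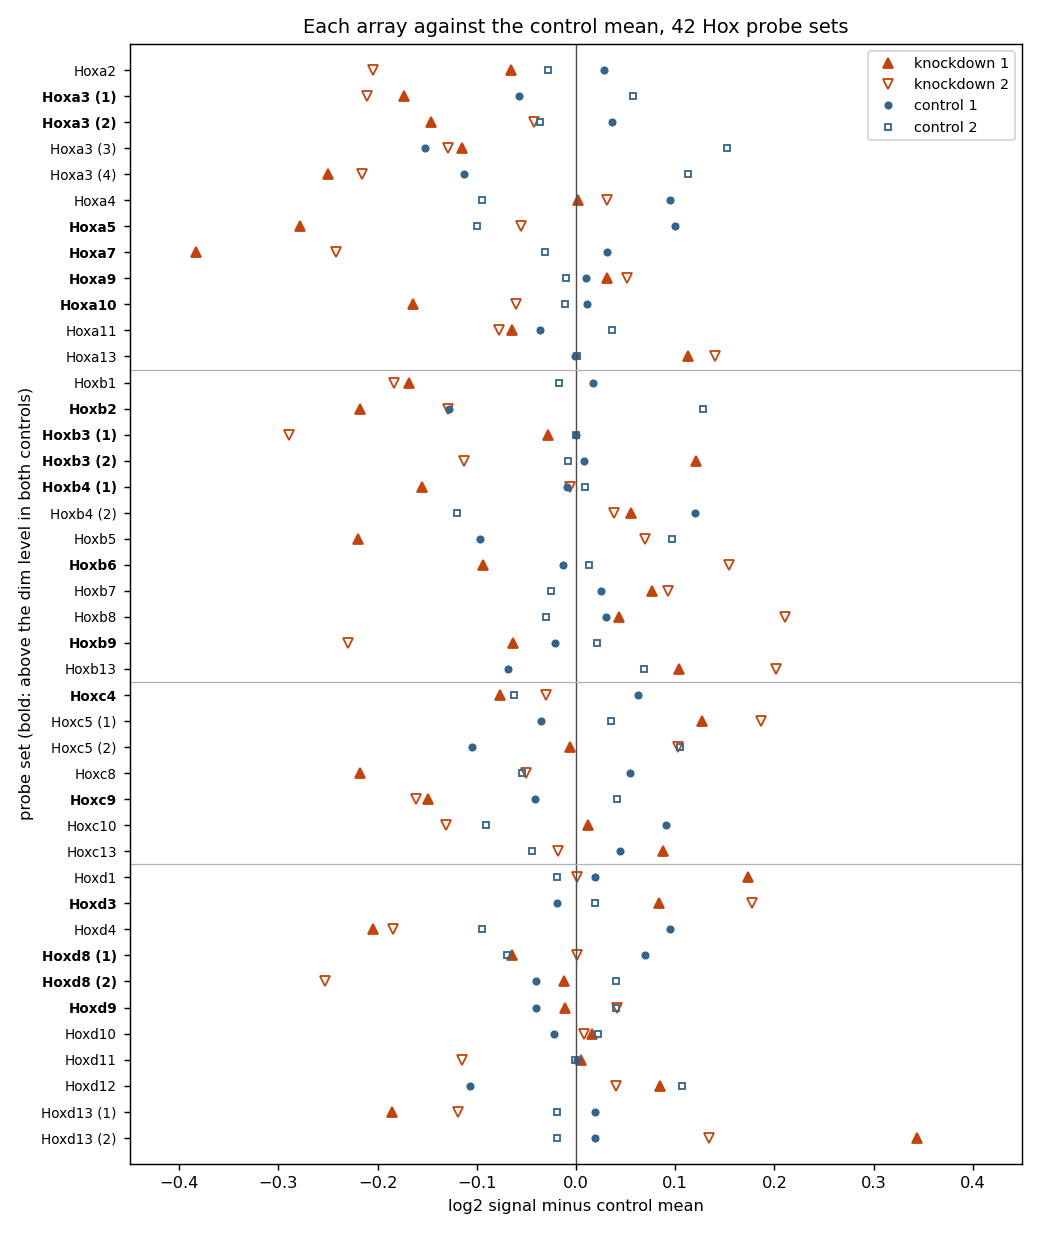
Log2 signal minus the control mean (horizontal axis) for each of the 42 Hox probe sets (rows, by cluster and paralogue group, brightest first within a gene); orange triangles are the 2 knockdown arrays, blue symbols the 2 controls, and bold names are above the dim level. Hoxa7 lies farthest to the left, the second Hoxd13 probe set in knockdown 1 farthest to the right, and the other knockdown points lie between them.

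Signal was higher in each knockdown array than in either control for 8 of 42 Hox probe sets and lower for 14, or 19.0% and 33.3%, and the groups overlapped for 20. Among all probe sets the shares were 18.6% above and 19.9% below. Among the 18 Hox probe sets above the dim level, 2 were above both controls and 8 below, and among the 24 others the counts were 6 and 6. The median Hox difference was -0.06 over all 42, -0.10 over the 18 above the dim level and 0.01 over the 24 others, beside a median of 0.00 over all probe sets. Against the control mean the median Hox shift was -0.05 in knockdown 1 and -0.04 in knockdown 2.

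By cluster, the median difference was -0.12 over 12 Hoxa probe sets, -0.04 over 12 Hoxb, -0.05 over 7 Hoxc and 0.01 over 11 Hoxd. Beside the shares over all probe sets of 18.6% higher and 19.9% lower, in Hoxa 2 probe sets (16.7%) were higher than both controls in each knockdown array and 7 (58.3%) were lower. The counts were 3 and 4 in Hoxb, 1 and 1 in Hoxc and 2 and 2 in Hoxd. The stretch Hoxa2 to Hoxa7 held 8 probe sets, of which 0 lay above both controls and 5 below, with a median difference of -0.15. This stretch was picked after its values were seen, 4 of its 8 probe sets belong to Hoxa3, and 0 passed the test. By position, the median was -0.13 over 11 probe sets of groups 1 to 3. It was -0.04 over 16 of groups 4 to 8 and 0.01 over 15 of groups 9 to 13. Both knockdown arrays were below both controls in 7 (63.6%), 2 (12.5%) and 5 (33.3%) of them. They were above both controls in 1 (9.1%), 3 (18.8%) and 4 (26.7%). Of the 11 probe sets of groups 1 to 3, 4 belong to Hoxa3. No test of a difference between clusters or positions was made.

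**Figure D3:**
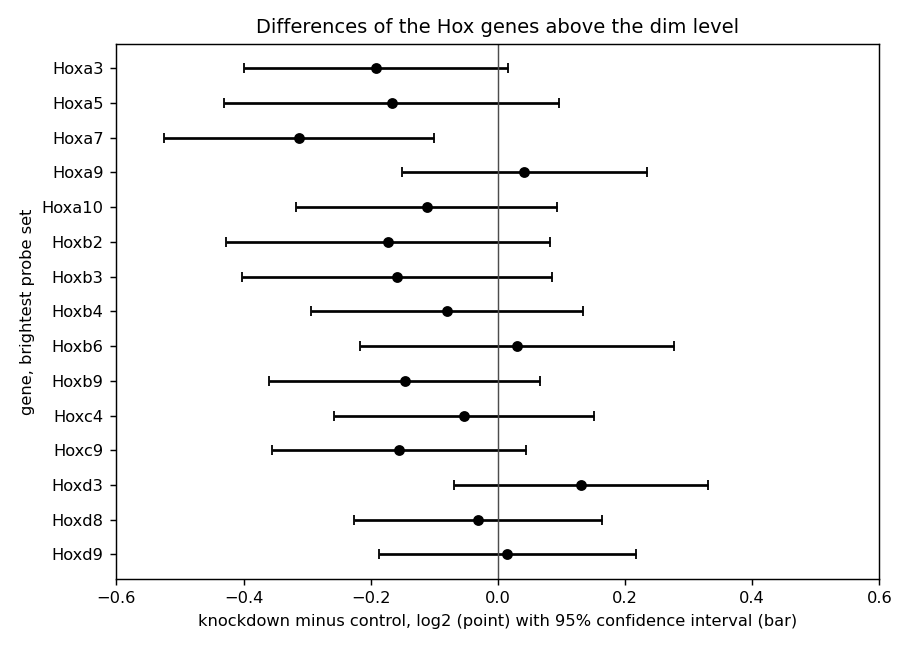
Fitted difference, knockdown minus control in log2 (horizontal axis, point), with its 95% confidence interval (bar) for the brightest probe set of the 15 Hox genes above the dim level (rows). The interval of Hoxa7, -0.53 to -0.10, is the one that leaves out 0 before adjustment, and the others cross it.

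Because a group holds 2 arrays, 1 array can decide a call. With knockdown 1 left out, the difference was -0.29 for the brightest Hoxb3 probe set, -0.06 for Hoxa5 and -0.24 for Hoxa7. For the second Hoxd13 probe set it was 0.13. With knockdown 2 left out, these differences were -0.03 for Hoxb3, -0.28 for Hoxa5, -0.38 for Hoxa7 and 0.34 for Hoxd13. In both fits the lone knockdown array is assumed to vary like the controls. The brightest Hoxb3 probe set was thus low mainly in knockdown 2 and Hoxa5 mainly in knockdown 1. The median Hox difference was -0.0552 with control 1 left out and -0.0637 with control 2 left out.

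The arrays themselves differed unevenly. Over all probe sets the standard deviation of the difference between the 2 arrays of a group was 0.19 in knockdown and 0.11 in control, and over the Hox probe sets it was 0.13 in both. Knockdown 1 deviated from the control mean with a standard deviation of 0.19 over all probe sets and 0.14 over Hox probe sets, and knockdown 2 with 0.13 and 0.14. The largest deviation in knockdown 1 was 3.13 over all probe sets and 0.38 over the Hox family. Across the 42 Hox probe sets the group means of knockdown and control correlated at r = 0.99, a description over probe sets that share the 4 arrays. Ribosomal 18S signal was 9.07 and 8.83 in the knockdown arrays and 9.19 and 9.14 in the controls, and its part in these differences was not tested.

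Hox proteins bind DNA with PBX and MEIS-family partners, and 7 of 8 measured cofactor genes were above the dim level. Pbx3 had 7.52 and 7.43 in the knockdown arrays against 7.19 and 7.07 in the controls, a difference of 0.34 (SE 0.08, unadjusted p = 0.003, adjusted p = 0.488). Meis1 differed by 0.07 and Pknox1 by -0.15. Here and in the lists below, a gene stands for its brightest probe set. Among the genes named with a difference, the probe sets of Meis1, Kdm6a, Rarg, Msx1, Col9a1 and Des did not share a direction. Each knockdown array was above both controls for 3 of the 8 and below them for 1, beside 18.6% and 19.9% of all probe sets. The median difference of the list was 0.06, and 0 of its genes passed the test.

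Polycomb proteins, which keep Hox genes silent, were above the dim level in 11 of 13 measured genes. Suz12, a core subunit, had 8.51 and 8.46 in the knockdown arrays against 8.64 and 8.64 in the controls, a difference of -0.16 (unadjusted p = 0.028, adjusted p = 0.655), while Rnf2 differed by 0.10 and Phc1 by 0.09. The list's median difference was -0.03. Trithorax-type proteins and the H3K27 demethylases, which oppose Polycomb, were above the dim level in 5 of 5, with differences of 0.17 for Kdm6a, -0.11 for Wdr5 and 0.08 for Ash2l and a list median of 0.08. No gene of either list passed the test. Both knockdown arrays lay above the controls for 3 of 13 Polycomb genes and below them for 2. For the other list the counts were 2 and 1 of 5, and the shares over all probe sets were 18.6% and 19.9%.

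Of the genes of the axial signals that regulate Hox genes in the embryo, 2 of 9 measured genes were above the dim level. They were the retinoic acid-degrading enzyme Cyp26b1 (difference -0.11) and the receptor Rarg (0.05), and the caudal genes Cdx1, Cdx2 and Cdx4 were not. The list median was 0.02. Both knockdown arrays lay above the controls for 3 of the 9 and below them for 0, beside 18.6% and 19.9% of all probe sets. Non-coding RNAs of the clusters were measured for 3 genes, Hoxa11os, Hoxb5os and Hoxd3os1, of which 0 were above the dim level and whose median difference was -0.01. In these 2 lists 0 genes passed the test.

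Other factors that mark limb position were above the dim level in 5 of 12 genes. Tbx4, Tbx5, Pitx1, Hand2 and Shh, which mark hindlimb, forelimb or the posterior limb margin, were not. Irx5 had 5.87 and 6.17 in the knockdown arrays against 6.47 and 6.46 in the controls (difference -0.45, SE 0.11, unadjusted p = 0.005, adjusted p = 0.525), and its neighbour Irx3 had 5.77 and 6.33 against 6.45 and 6.45 (difference -0.40). Both Irx genes were low in each knockdown array and lower in knockdown 1, and Tbx15 differed by 0.08. Of the other mesenchymal homeobox genes 5 of 12 were above the dim level, with differences of 0.15 for Prrx2, -0.20 for Dlx5 and 0.14 for Msx1. The medians of these lists were both 0.03, and 0 genes passed the test. Both knockdown arrays lay above the controls for 0 of 12 limb genes and below them for 3. For the homeobox genes the counts were 3 and 3 of 12, beside 18.6% and 19.9% of all probe sets.

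Cell type markers gave the setting of these values. Chondrocyte markers were above the dim level in 6 of 12 genes, among them Col2a1, the main collagen of cartilage, with 8.23 and 9.17 in the knockdown arrays against 9.01 and 9.08 in the controls. Col9a1 differed by -0.26 and Col11a1 by 0.15, and the list median was -0.04. Of 8 listed osteoblast markers 4 were measured, and 3 of these 4 were above the dim level. All 4 had both knockdown arrays below both controls, with a median of -0.64 that was -1.13 in knockdown 1 and -0.18 in knockdown 2. Among all probe sets 19.9% lay below both controls in this way. Ibsp, which encodes bone sialoprotein, had 7.02 and 9.01 in the knockdown arrays against 10.15 and 10.15 in the controls (difference -2.13, adjusted p = 0.506), Sp7 differed by -0.46 and Bglap by -0.58. The part of that shift in the Hox values was not tested. Adipocyte, skeletal muscle, endothelial and macrophage markers were above the dim level in 2 of 4, 1 of 5, 1 of 4 and 1 of 4 genes, with median differences of 0.14, 0.05, 0.00 and -0.01. The members above it were Lpl (difference 0.18) and Pparg (0.10) for adipocytes, Des (-0.12) for muscle, Kdr (0.11) for endothelium and Csf1r (-0.09) for macrophages. Among the members not above it were Adipoq, Myod1, Pecam1, Cdh5 and Ptprc. The chondrocyte markers Sox5, Matn1, Matn3, Hapln1, Comp and Snorc were not above it either. In all of these marker lists 0 genes passed the test.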

How the data were processed

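RNA of ATDC5 cells was measured on 2 knockdown and 2 control Affymetrix arrays. Each deposited value is the log2 signal of a probe set. Per the submitters' processing notes, the authors used RMA, whose version is not given in the sources used here. RMA aligns the arrays and compresses the change of dim probe sets. Of 45141 probe sets, 104 array controls were left out. Platform annotation gave 28898 probe sets 1 symbol, 551 several and 15588 none, and all 42 Hox gene identifiers matched the GRCm38.p6 gene table. Samples were grouped by title. Knockdown was compared with control in limma 3.58.1 (R 4.3.3; moderated two-sided test with an intensity-dependent prior) on 45037 probe sets, with Benjamini-Hochberg adjustment over all and a threshold of 0.05. The procedure was tested on simulated data. Every Hox gene was named, with its values per array where its brightest probe set was above the dim level or a probe set had an unadjusted p under 0.05. Values per array were also given for Hoxa2, Hoxc5, Hoxc10 and Hoxd4, which did not meet that rule. From each other list up to 3 genes above the dim level with the smallest p were named, with added mention of genes not above it. The members and lists were chosen with earlier results of these data known. In all 12 alternatives were run: normalizations, a filter on dim probe sets, gene-level values, eBayes priors, a replicate block and each array left out. The titles do not say whether equal replicate numbers mark a pair. Same-numbered arrays deviated together with r = 0.01 over all probe sets. That value cannot decide it, because each group gives a single difference between arrays. The number of arrays limits the precision.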

Additional observations from a re-analysis of the deposited data

How the results depend on the processing

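The count of Hox probe sets with an adjusted p under 0.05 was 0 in the main fit. It stayed at 0 under quantile normalization, median centring, a filter on the dimmest 40% of probe sets and gene-level values. Both other eBayes priors and the replicate block also left it at 0. It did not stay at 0 when a knockdown array was left out, in fits with 1 array in that group. The lowest adjusted p of a named Hox probe set outside those was 0.505. Over all probe sets the count was 1, against 0 with the brightest probe set per gene, 0 with the mean of probe sets per gene, 0 with no trend, 3 with robust eBayes and 2 with the replicate block, and it ran from 0 to 5749 when single arrays were left out, highest without knockdown 2. The cause was not tested. The replicate block, which treats equal replicate numbers as a pair, changed no Hox call. The median Hox difference ran from -0.0637 to -0.0363 with single arrays left out and from -0.0591 to -0.0534 under the other alternatives. Of 18 named Hox probe sets, 4 turned direction when an array was left out: Hoxb6 ran from -0.0938 to 0.1539, Hoxc4 from -0.1161 to 0.0093, Hoxd8 from -0.1016 to 0.0384 and Hoxd9 from -0.0255 to 0.0556. With the median of all probe sets as the dim level 21 Hox probe sets were above it (Hoxc5, Hoxc10 and Hoxc13 added), and with the 99th percentile of odorant receptor probe sets 17 (Hoxd3 lost), against 18. Signal over background limits the dim genes, for which a small change cannot be seen.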
